A study of Mus musculus with 6 samples.

Results

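The Toll-like receptor and NF-kB pathway was examined through 42 genes in whole lung of mice that lack lincRNA-Cox2, a long noncoding RNA transcribed beside Ptgs2, the gene for inducible cyclooxygenase. The genes were chosen by symbol to cover the receptors, their adaptors and kinases, the NF-kB subunits and the proteins that hold NF-kB back, and all 42 were found among the 20494 rows of the authors' deposited table. Both groups were untreated male C57BL/6 mice of 4 months, 3 libraries with the genotype lincRNA-Cox2 KO and 3 with the genotype Wild type. How the knockout allele was made, and whether the mice of the groups were littermates, is not given in the sources used here. The table gives the mean normalized count of each genotype (reads scaled by a library size factor) and 1 comparison, knockout over wild type, with no values of single libraries. Where groups are compared, the spread between libraries therefore enters through the standard errors and p-values of that table. Pairs of means are given with wild type before knockout, and ratios as knockout over wild type with their 95% interval in brackets. Gene positions are those of GENCODE M21 on mm10.

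Toll-like receptors recognise microbial lipids, proteins and nucleic acids at the cell surface or in endosomes. Through the adaptor MyD88 they activate IRAK kinases, the ubiquitin ligase TRAF6 and the kinase TAK1, and through the adaptor TRIF they activate TRAF3 and TBK1. TAK1 activates the IkB kinase complex, which marks IkB proteins for destruction and so frees NF-kB dimers to enter the nucleus, where they switch on inflammatory genes together with their own inhibitors. In lung the pathway works in alveolar macrophages, in other leukocytes, and in epithelial and endothelial cells, and lincRNA-Cox2 itself is known as a transcript that Toll-like receptor ligands induce in macrophages.

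The targeted RNA was nearly absent from the knockout, which averaged 0.666 normalized counts against 311 in wild type, per the authors' deposited table. Summed over all rows, the group means came to 3.71e+07 (wild type) and 3.68e+07 (knockout), which are scaled values and not the depth of any library. The lung markers were high in both genotypes in the authors' deposited table, with means of 82187 and 83359 for the surfactant gene Sftpc and 50719 and 51324 for the club cell gene Scgb1a1, and 0 of 9 epithelial markers were called (0 at an unadjusted p under 0.05, DESeq2). In bulk tissue, fewer cells of a type and less RNA per cell cannot be told apart.

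NF-kB dimers bind a short motif known as the kB site, and several genes of the pathway are themselves NF-kB targets. To show this in sequence, the 250 bases upstream of each annotated start (RefSeq, GRCm38.p6, the same build as mm10) were searched on both strands for the core GGNNTTTCC, a form chosen with earlier results known. Start sites were listed for 32 of the 42 genes, in 45 windows. Not listed were Tlr4, Tlr7, Cd14, Ly96, Ticam2, Tab1, Ikbkb, Nfkb1, Relb and Nfkbiz. Of the 45 windows, 10 held the motif (22.2%), against 4.93% of all 32851 windows. As known NF-kB targets are among the genes, this higher share is an illustration and was not tested. Nfkbia, which encodes the inhibitor IkBa, is the classical example, and its whole window (chr12:55492648-55492897, minus strand) is printed 5′ to 3′ on the gene's strand with the matches in capitals.
Nfkbia: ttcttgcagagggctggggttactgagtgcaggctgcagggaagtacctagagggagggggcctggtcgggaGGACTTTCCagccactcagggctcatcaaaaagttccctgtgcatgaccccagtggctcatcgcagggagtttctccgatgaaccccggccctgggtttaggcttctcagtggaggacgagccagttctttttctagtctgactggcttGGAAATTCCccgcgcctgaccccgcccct
The first match reads GGACTTTCC and starts 178 bases before the transcription start; the second lies on the opposite strand, where it reads GGAATTTCC, and starts 29 bases before it. For the NF-kB subunits and feedback inhibitors with a match, the match is shown in capitals in a stretch of up to 30 bases around it, on the strand of the gene.
Tnfaip3, chr10:19015415-19015444, minus strand: tcacgtgactGGAATTTCCatcGGAAATCC
Rel, chr11:23771041-23771070, minus strand: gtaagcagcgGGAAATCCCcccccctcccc
Nfkb2, chr19:46304717-46304736, plus strand: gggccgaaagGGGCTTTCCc
Nfkb2, chr19:46305696-46305725, plus strand: ggtattttcgGGACTTTCCtaagcagcact
Bcl3, chr7:19822840-19822869, minus strand: cgcgggtccaGGAAACCCCtggggcggacg
In Tnfaip3 a second match on the opposite strand begins 3 bases after the first and runs past the printed end. Matches were also found upstream of Traf3, Map3k7, Tlr3 and Tlr5. These are letter matches and not measured binding sites. Of the 9 genes with a match, 3 had a lower mean in knockout, with a median log2 ratio of 0.02. Of the 23 genes with a window and no match, 12 had a lower mean, with a median of -0.00. Other forms of the kB site were not searched, so a gene without a match may still hold a kB site. The AP-1 motif TGANTCA was found in 7 of the 45 windows (15.6%), against 6.75% of all 32851 windows. The full cAMP response element TGACGTCA was found in none of them (0 of 45), against 508 of all 32851.

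Across the pathway, lung without lincRNA-Cox2 kept levels near those of wild type, and 1 gene was called, Nfkbiz, which was lower. A gene was called where the adjusted p of the authors' DESeq2 comparison was under 0.05. That is 2.38% of the 42 genes, against 1.09% of all 16902 rows with an adjusted p, so that the count of calls is near the background. At an unadjusted p under 0.05 there were 9 genes, or 21.4%, against 8.47% of all rows; 5 were higher and 4 lower in knockout, where the background was 4.43% higher and 4.04% lower. The knockout mean was below the wild type mean in 20 of the 42 genes and in 50.6% of all tested rows. The median log2 ratio of the group means was 0.01 over the 42 genes and -0.00 over all tested rows, and the median of its absolute value was 0.07 in both. All tested rows include rows lower than any member. Over the 13538 tested rows with a mean at or above that of the lowest member, the median absolute value was 0.06.

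For each gene an interval of the fold was worked out from the authors' deposited table. The log2 ratio of the group means divided by the Wald statistic gives a standard error before shrinkage, which carries the spread between libraries as DESeq2 estimated it. With these errors, the 95% interval of the ratio of knockout to wild type lay within 1.2-fold in either direction for 22 of the 42 genes and within 1.5-fold for 39. The same errors correspond to a coefficient of variation between libraries of one genotype of 4.17% for the steadiest gene, Tab2, to 17.3% for Ly96, with a median of 6.99%. The least precise genes, Ly96 and Tlr6, were also low, with means of at most 170 normalized counts in either genotype. Precision did not follow level alone. Nfkbiz had a coefficient of variation of 10.6% at a mean of 1162 over all libraries, and Irak4 7.02% at 751.

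**Figure D1:**
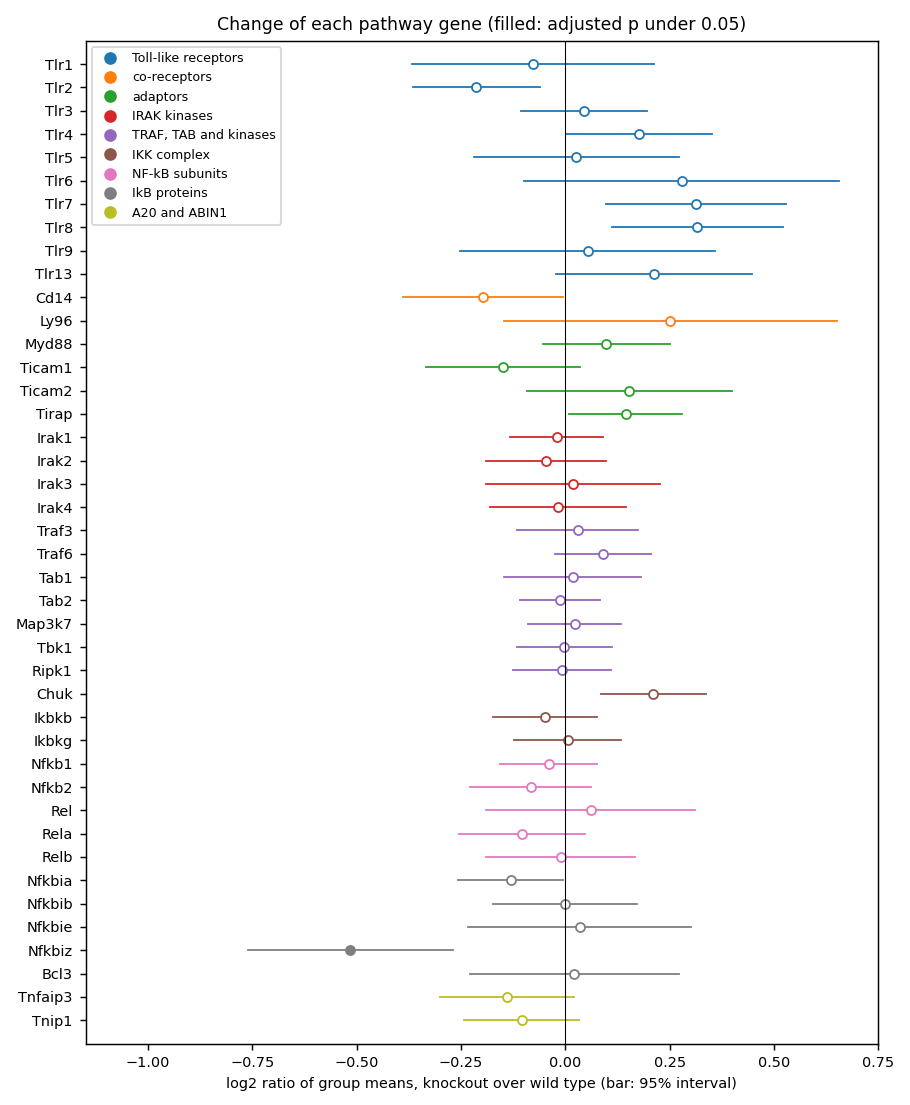
Log2 ratio of the group means, knockout over wild type, for the 42 pathway genes ordered by role, with 95% intervals from the standard error before shrinkage. The filled point is Nfkbiz, the gene called at an adjusted p under 0.05, with a ratio of -0.52, and the open points of the other 41 genes lie between -0.21 and 0.32.

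Levels were compared between genes per kb of exon (union of exons in GENCODE M21 basic), since longer transcripts collect more reads. The inhibitor gene Nfkbia stood highest in wild type lung at 3017 normalized counts per kb. The NF-kB subunits Rela (p65) and Nfkb1 (p105/p50) followed at 1623 and 1560 per kb. These levels of Rela and Nfkb1 differed by less than the 6.53% variation between libraries of Rela, while Nfkbia stood above both by far more than its own 5.45%. The other subunits were lower, with 455 per kb for Nfkb2, 429 for Relb and 50.7 for Rel, the subunit best known from lymphocytes. Among the receptors, Tlr2 was highest at 760 per kb, and Tlr3, Tlr4, Tlr13, Tlr7, Tlr5, Tlr8, Tlr1, Tlr9 and Tlr6 followed in that order, from 431 down to 38.1 per kb. Close places in that order are not all resolved. Tlr13 and Tlr7, at 168 and 161 per kb, did not differ beyond their variation of 10.2% and 9.38%. Tlr5 came close below at 144 per kb, with a variation of 10.6%. This variation does not cover the choice of exon length, and the order was not tested. Cd14, the co-receptor that hands lipopolysaccharide to TLR4, had 1092 per kb, and Ly96, which encodes MD-2, the subunit of TLR4 that binds lipopolysaccharide, had 210.

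**Figure D2:**
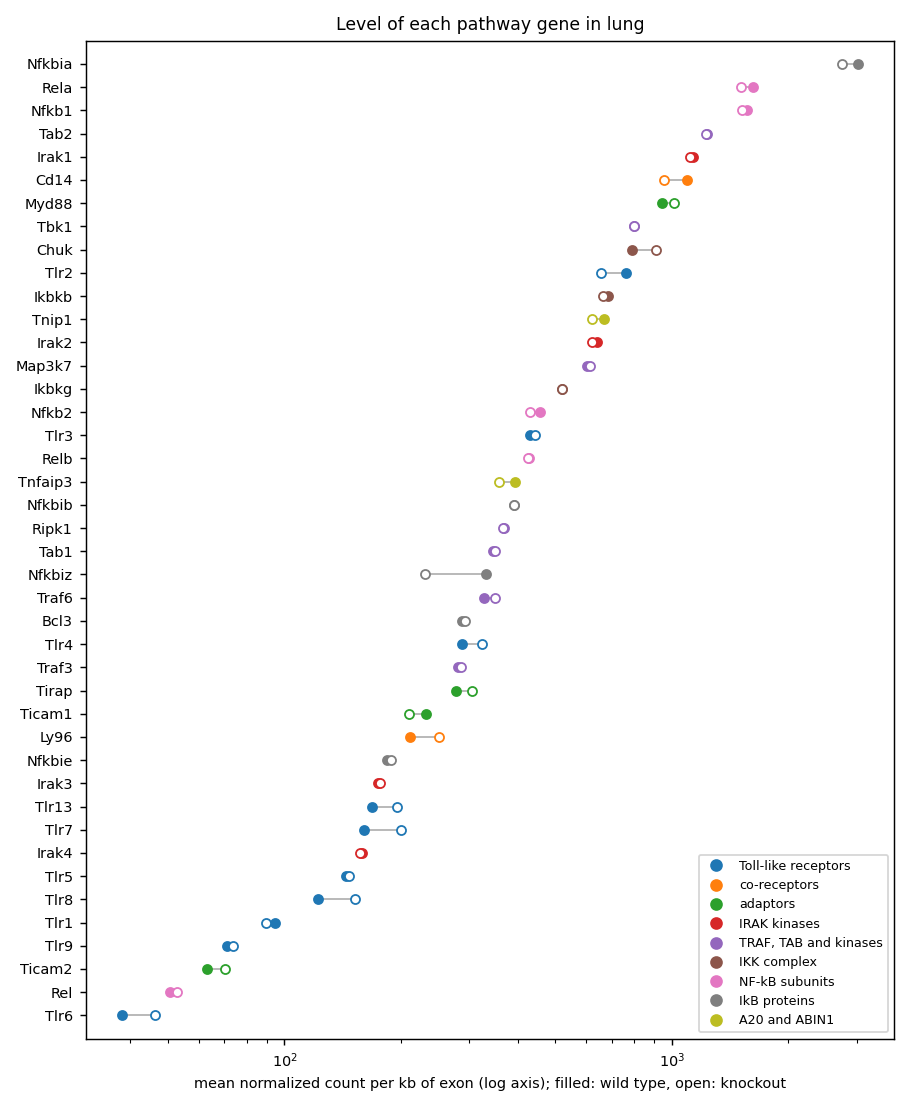
Mean normalized count per kb of exon (log axis) for each pathway gene in wild type (filled) and knockout (open), ordered by the wild type level and coloured by role. Levels run from 38.1 per kb for Tlr6 to 3017 per kb for Nfkbia, and the widest gap between the genotypes is that of Nfkbiz.

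Of the 10 Toll-like receptor genes, 8 had a higher mean in knockout and 0 were called (4 at an unadjusted p under 0.05 in DESeq2, Tlr4, Tlr7 and Tlr8 higher and Tlr2 lower). Tlr8 and Tlr7, endosomal sensors of single-stranded RNA, are neighbours on the X chromosome with 40.6 kb between them, Tlr8 from 167242696 to 167264329 and Tlr7 from 167304929 to 167330558 on the minus strand. Tlr8 averaged 419 normalized counts in wild type and 522 in knockout, a ratio of 1.25 (95% interval 1.08 to 1.44) with an unadjusted p of 0.00248 and an adjusted p of 0.127 in the authors' deposited table. Tlr7 had means of 637 and 791, a ratio of 1.24 (1.07 to 1.44), with an unadjusted p of 0.00463 and an adjusted p of 0.187 in the authors' deposited table. The ratios of this pair of neighbours were thus alike in size, and neither passed the threshold over all genes.

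Tlr13, a sensor of bacterial ribosomal RNA that also lies on the X chromosome, averaged 682 and 791 normalized counts, per the authors' deposited table, with a ratio of 1.16 (0.984 to 1.36). Tlr4, the lipopolysaccharide receptor (chromosome 4, 66827584 to 66930284, plus strand), averaged 1567 and 1771, with an unadjusted p of 0.0484 and an adjusted p of 0.586 in the authors' deposited table. Tlr2, which recognises bacterial lipoproteins (chromosome 3, 83836272 to 83841767, minus strand), went the other way with means of 2290 and 1975, a ratio of 0.862 (0.776 to 0.959), an unadjusted p of 0.0061 and an adjusted p of 0.217 in the authors' deposited table. Its partners for lipoproteins, Tlr1 and Tlr6, lie 18.5 kb apart on chromosome 5 and had ratios of 0.948 (0.775 to 1.16) and 1.21 (0.934 to 1.58). Tlr1 and Tlr6 are close paralogs, and as the counting rule is not given in the sources used here, the split of reads between them is uncertain. Tlr3, the receptor for double-stranded RNA, Tlr5, the flagellin receptor, and Tlr9, the receptor for CpG DNA, had ratios of 1.03, 1.02 and 1.04, all with adjusted p-values of at least 0.994 in the authors' deposited table.

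The genes that assemble the lipopolysaccharide receptor around Tlr4 did not share a direction. Cd14 (chromosome 18, 36725067 to 36726798, minus strand) averaged 1792 and 1561 normalized counts, a ratio of 0.872 (0.763 to 0.995) with an unadjusted p of 0.0427 and an adjusted p of 0.556 in the authors' deposited table. Ly96 had means of 133 and 158, with a wide interval of the ratio, 0.902 to 1.57. Neither was called.

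Several of these receptors are best known from myeloid cells, so marker lists of the cells that whole lung holds were set beside them. Of 15 neutrophil genes 14 were in the table and 11 tested, and 7 were called, all higher (S100a8, S100a9, Csf3r, Cxcr2, Retnlg, Mmp8 and Clec4d). Summed over the 14 genes, the mean was 10975 in wild type and 14904 normalized counts in knockout, a ratio of 1.36. Among the granule genes on the list, Mpo averaged 0.659 and 0.977, Camp 0.694 and 1.97 and Ngp 6.63 and 14.3, per the authors' deposited table. At these low counts they had no adjusted p, and their direction cannot be read. Mmp9 averaged 1073 and 1220 and was not called (adjusted p = 0.787, per the authors' deposited table). Ltf, the granule gene for lactoferrin, which airway glands also make, averaged 2449 and 1366, the 1 tested gene of the list with a lower mean in knockout (adjusted p = 0.885, per the authors' deposited table). Each of the 7 called genes had a larger ratio than any pathway gene, and 0.592% of all rows were called higher. Of 10 monocyte genes, 6 had a higher mean in knockout, with a median log2 ratio of 0.08, and 1 was called, Nr4a1, which was lower and is also on the immediate-early list. The summed mean of the list was 75768 and 62487, of which Nr4a1 made up 14598 and 4408 and Ace 44059 and 39595, per the authors' deposited table. Ccr2 and Ly6c2, markers of classical monocytes, had means of 2565 and 3232 and of 738 and 908, with adjusted p-values of 0.235 and 0.30 in the authors' deposited table. Of 10 alveolar macrophage genes 0 were called (1 at an unadjusted p under 0.05 by DESeq2), with summed means of 37452 and 39471, and of 9 dendritic cell genes 0 (3 at that level), with 6009 and 5788. B cell markers gave 0 calls of 8, with summed means of 9157 and 8304. All 8 had a lower mean in knockout, with a median log2 ratio of -0.17. Of the 8, 4 had an unadjusted p under 0.05 (DESeq2), where 4.04% of all rows were lower at that level. T cell markers gave 0 calls of 8 (0 at that level) and endothelial markers 0 of 6 (1), with summed means of 2712 and 2670 and of 149185 and 142215. In these lists 5 of 8 and 5 of 6 genes had a lower mean in knockout. Of 5 red cell genes 2 were in the table and 0 called (0 at that level), with summed means of 31192 and 34872. The part of these cells in the receptor values was not tested.

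**Figure D3:**
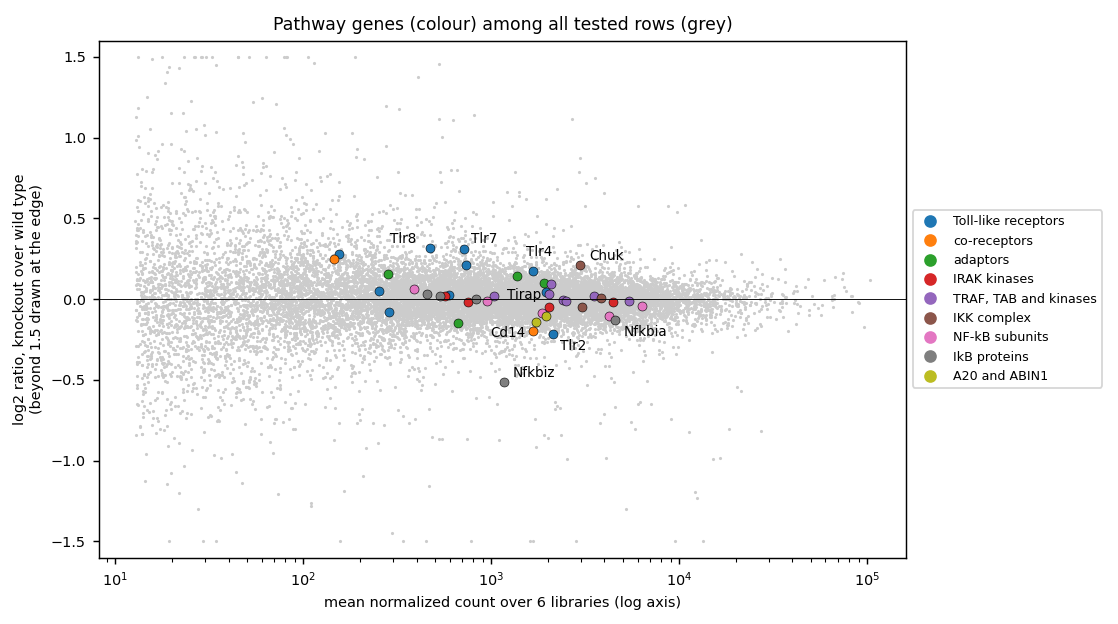
Ratio of knockout to wild type on a log2 scale, plotted against expression as the 6-library mean of normalized counts (logarithmic), for all tested rows (grey) and the 42 pathway genes (coloured by role, with names for the 9 genes at an unadjusted p under 0.05). Nfkbiz, at -0.52, lies below the grey band at its level, Tlr8, Tlr7 and Chuk lie at 0.32, 0.31 and 0.21, and most others lie inside the band.

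Adaptors carry the signal from the receptors, and 0 of the 4 were called (1 at an unadjusted p under 0.05, DESeq2). Tirap, which brings MyD88 to TLR2 and TLR4, had means of 1308 and 1446 normalized counts, a ratio of 1.11 (1.01 to 1.21) with an unadjusted p of 0.0384 and an adjusted p of 0.537 in the authors' deposited table. Myd88 had a ratio of 1.07 (0.963 to 1.19). The genes of the other branch are Ticam1 (TRIF) and Ticam2 (TRAM, which links TRIF to TLR4). Their ratios were 0.902 (0.793 to 1.02) and 1.11 (0.938 to 1.32). Both intervals include 1, so no direction of the branch can be read.

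The kinases and ubiquitin ligases in the middle of the pathway had ratios near 1. The 4 IRAK kinase genes had ratios from 0.969 for Irak2 to 1.01 for Irak3, the latter encoding IRAK-M, a member of the family that restrains signalling. Among the 7 genes Traf3, Traf6, Tab1, Tab2, Map3k7 (TAK1), Tbk1 and Ripk1 the ratios ran from 0.991 to 1.07, and Traf6 had the highest of them, with means of 2022 and 2153 and an adjusted p of 0.78 in the authors' deposited table. In both groups of genes 0 were called and 0 had an unadjusted p under 0.05 in DESeq2. For Tab2, which bridges TAK1 to ubiquitin chains, the interval of the ratio was 0.927 to 1.06, and for Tbk1, the kinase of the interferon branch, it was 0.922 to 1.08.

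In the IkB kinase complex, the catalytic subunit gene Chuk (IKKa) had the lowest p of the 3 genes. Chuk (chromosome 19, 44073335 to 44107480, minus strand) averaged 2760 and 3195 normalized counts, a ratio of 1.16 (1.06 to 1.26) with a shrunken log2 fold change of 0.18 ± 0.056 (SE), an unadjusted p of 0.00108 and an adjusted p of 0.0739 in the authors' deposited table. It was the gene nearest to the threshold without passing it. Ikbkb, the subunit IKKb that phosphorylates IkBa in the classical pathway, had means of 3108 and 3004 in its main row and 199 and 206 in a second row of that symbol, per the authors' deposited table. Ikbkg, the scaffold NEMO, averaged 3807 and 3822 normalized counts, and the interval of its ratio ran from 0.919 to 1.10. The differences between the subunits' ratios were not tested.

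The 5 NF-kB subunit genes had ratios between 0.93 and 1.04, 4 of them under 1, and 0 were called (0 at an unadjusted p under 0.05, DESeq2). Rela, with means of 4407 and 4101 normalized counts, and Nfkb1, with 6434 and 6258, had adjusted p-values of 0.856 and 0.991 in the authors' deposited table. The 95% intervals of their ratios were 0.838 to 1.03 and 0.898 to 1.05. Nfkb2 and Relb, the pair of the alternative pathway that Chuk serves, had ratios of 0.944 (0.854 to 1.04) and 0.992 (0.877 to 1.12), and Rel had 1.04 (0.877 to 1.24).

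The clearest difference in the pathway was in Nfkbiz, which encodes IkBz, an inducible nuclear IkB protein that works with NF-kB at secondary response genes. Nfkbiz (kgCluster11065, chromosome 16, 55811375 to 55838899, minus strand) fell from a wild type mean of 1367 normalized counts to 956, with a shrunken log2 fold change of -0.33 ± 0.081 (SE) and an adjusted p of 0.00719 in the authors' deposited table. The unshrunken ratio of knockout to wild type was 0.699, with a 95% interval of 0.59 to 0.829. Its adjusted p was 0.00871 when every row with a p-value was adjusted together and 0.00669 among rows with a mean of at least 50. Nfkbid, a nuclear IkB gene from the list of other pathway genes, had a ratio of similar size, 0.705, with means of 250 and 177 and an adjusted p of 0.193 in the authors' deposited table, and was not called.

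None of the remaining 4 IkB genes was called (1 at an unadjusted p under 0.05, DESeq2), and their difference from Nfkbiz was not tested. Nfkbia (chromosome 12, 55489410 to 55492647, minus strand), the inhibitor that holds p65 in the cytoplasm, had means of 4761 and 4349 normalized counts, a ratio of 0.914 (0.837 to 0.997) with an unadjusted p of 0.0423 and an adjusted p of 0.554 in the authors' deposited table. Nfkbib had means of 834 and 834, and Nfkbie and Bcl3, a nuclear IkB protein that binds p50 and p52, had ratios of 1.02 and 1.02. The negative regulators outside the IkB family, Tnfaip3 (the ubiquitin-editing enzyme A20) and Tnip1 (its partner ABIN1), had means of 1810 and 1641 and of 2026 and 1884, with adjusted p-values of 0.709 and 0.80 in the authors' deposited table. Of 10 members grouped as feedback genes (Nfkbia, Nfkbie, Nfkbiz, Bcl3, Tnfaip3, Tnip1, Irak3, Nfkb1, Nfkb2 and Relb) 7 had a lower mean in knockout, with a median log2 ratio of -0.06, and Nfkbiz was the 1 that was called.

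Immediate-early genes, which cells switch on within minutes of a stimulus or of handling, were lower beside Nfkbiz. Of 24 such genes, 23 had a lower mean in knockout, and 5 were called, all lower, namely Atf3, Dusp2, Egr1, Nr4a1 and Zfp36, against 0.497% of all rows called lower. The median log2 ratio of the list was -0.76, and its summed mean was 261148 in wild type and 157170 normalized counts in knockout. The part of this change in the value of Nfkbiz was not tested.

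Nfkbiz also lies in a wide stretch of chromosome 16 where called genes were more frequent than on the rest of the chromosome. Its neighbour Nxpe3, on the same strand and with its 3′ end 1053 bases upstream of the Nfkbiz start, rose from 979 to 1687 (adjusted p of 3.37e-13, per the authors' deposited table), opposite in direction to Nfkbiz. Tbc1d23, 1.36 Mb away, rose by a ratio of 1.36, and Cd200, a ligand that restrains myeloid cells, 10.4 Mb away, had a ratio of 0.638. The window of 30 Mb on either side of Nfkbiz was chosen after the values were seen. In it 14 of 222 other tested genes were called (6.31%), 7 higher and 7 lower. On the rest of the chromosome 3 of 278 were called (1.08%), and over all rows 1.09%. Closer windows held fewer genes, with 1 of 12 called within 1 Mb (8.33%) and 2 of 27 within 5 Mb (7.41%). Within 10 Mb, 5 of 50 were called (10%). The 14 include Retnlg, 6.94 Mb away, which is also among the called neutrophil genes above. Whether the change of Nfkbiz is tied to its position was not tested. The other 41 genes are spread over the genome, and the 2 members on chromosome 1, Tlr5 and Ly96, lie 32.9 and 133 Mb from Ptgs2, with ratios of 1.02 and 1.19.

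**Figure D4:**
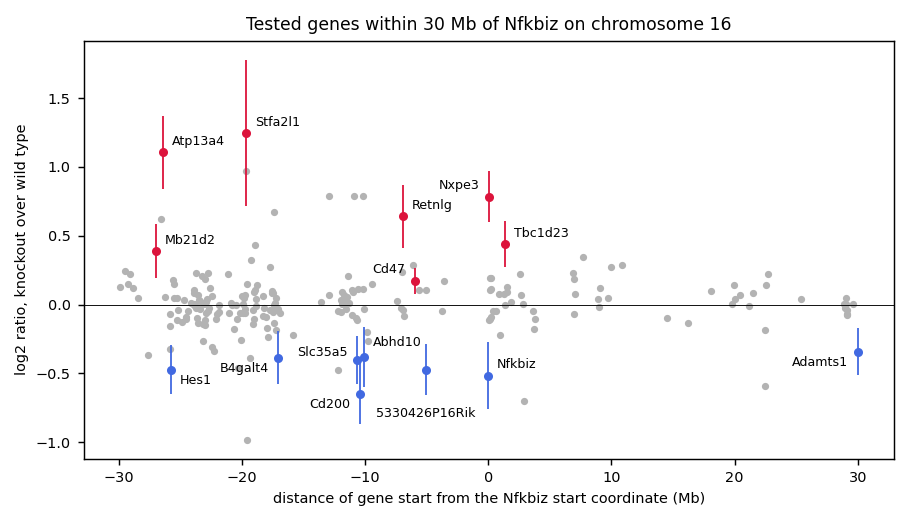
Log2 ratio of knockout over wild type for tested genes within 30 Mb of Nfkbiz on chromosome 16, by distance of the gene start from that of Nfkbiz (Mb). Red and blue points with 95% intervals are genes called higher and lower at an adjusted p under 0.05, and grey points all others; Nfkbiz, at -0.52, and its neighbour Nxpe3, at 0.79, lie at the centre in opposite directions.

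Beyond the 42 genes, 56 further genes of the pathway were taken from a list (receptor chaperones, further TRAF and IRF proteins, the linear ubiquitin ligase, Pellino proteins and others). All 56 were tested, and 0 were called, with 5 at an unadjusted p under 0.05 in DESeq2, 3 higher and 2 lower. The lowest p-values after that of Nfkbid were those of Pik3ap1, an adaptor to phosphoinositide 3-kinase, with means of 1837 and 2046, and of Nkiras2, an IkB-binding Ras-like protein, with 1746 and 1589 (adjusted p = 0.356 and 0.497 in the authors' deposited table). The median log2 ratio of the 56 was 0.01, with 26 lower in knockout.

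Textbook target genes of NF-kB gave 3 calls among 33 tested (34 listed), against 1.09% of all rows, and not in 1 direction. Ptgs2, which lies beside lincRNA-Cox2, fell from 2929 to 298 and Cxcl2, a neutrophil chemokine, from 155 to 63.7 (adjusted p = 9.55e-11 and 0.00504 in the authors' deposited table). Lcn2, an iron-binding protein that neutrophils also carry, rose from 2637 to 3321 (adjusted p = 0.000534 in the authors' deposited table). Next by p were Cxcl1 with means of 90.6 and 46.9, Il6 with 64.7 and 29.4, and Ier3 with 5152 and 4444, with adjusted p-values of 0.119, 0.124 and 0.139 in the authors' deposited table. At an unadjusted p under 0.05 there were 6 lower and 1 higher, and the median log2 ratio of the 33 was -0.03.

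**Figure D5:**
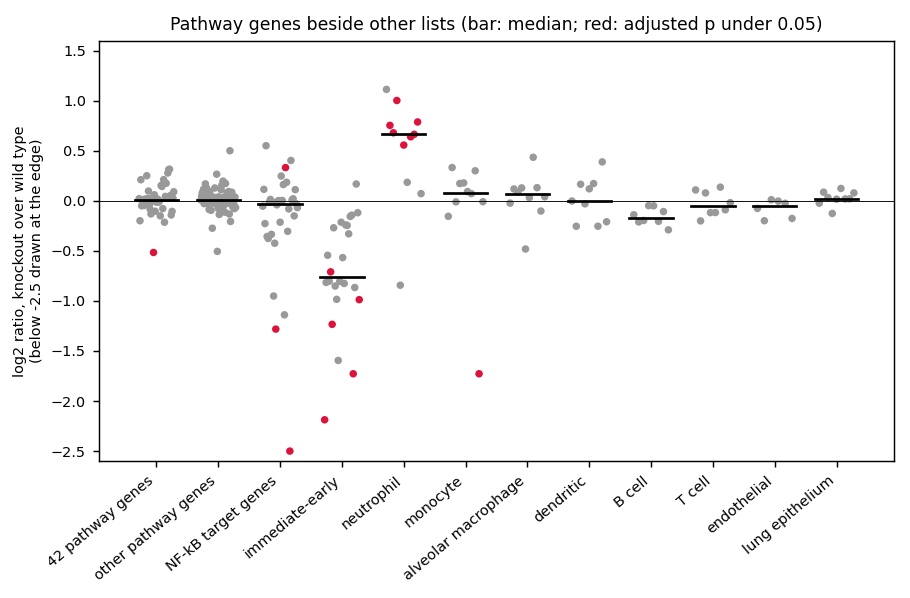
Log2 ratio of knockout over wild type for each tested gene (points) in the 42 pathway genes and 11 comparison lists, with the median as a bar and genes called at an adjusted p under 0.05 in red. The pathway genes centre on 0.01, the immediate-early list on -0.76 and the neutrophil list on 0.66.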

How the data were processed

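Whole-lung RNA of 3 knockout and 3 wild type mice was analysed. Per the submitters' processing notes, Bowtie2, STAR 2.5.1b, SAMtools, bedtools, DESeq2 and mm10 were used, with no role or order; how reads were counted, on which annotation and with what strandedness was not given in the sources used here. Per the file headers, the authors deposited group means (a signal in normalized counts) and a shrunken log2 fold change beside an error of its own. The authors also deposited the Wald score of DESeq2, its p-value and the value adjusted over genes. No new test was fitted. Ratios, their 95% intervals (1.96 standard errors) and lists were computed with Python 3.11.15 and pandas 2.3.3. The standard error before shrinkage was the log2 ratio over the Wald statistic; a normal prior with a standard deviation of 0.169 then gave the deposited shrinkage within a median 0.149% over 8240 rows, and was used for ratios within 0.005 of 0 on the log2 scale. This calculation was run on data simulated with the same formulas, which checks the code and not whether the formulas hold for the deposited values. For a repeated symbol, the most abundant row was taken. All 42 members are named, with full values for those at an unadjusted p under 0.05; other lists name called genes and the next 3 by p. Members and lists were chosen with earlier results of these data known. The replicates are taken as separate mice; the p-values measure the spread between these libraries. Depth per library was not analysed here, so no counting interval is given.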

Additional observations from a re-analysis of the deposited data

How the results depend on the processing

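With an adjusted p under 0.1 in place of 0.05, 2 members were called, Nfkbiz and Chuk, in place of 1. The counts of called members, other pathway genes and NF-kB targets stayed at 1, 0 and 3 when all rows with a p-value were adjusted together, among rows with a mean of at least 50, and when any row of a symbol counted. The number of members lower in knockout ranged from 17 (group means divided by their sums) to 20, and the median log2 ratio from 0.01 (shrunken values) to 0.02. Of 126 single values recomputed with a pseudocount of 1, centring or shrinkage, 125 moved by less than their standard error. The exception was Nfkbiz, the called gene, at -0.33 when shrunken and -0.52 as a ratio of means, and it kept its sign. Nfkbib, which was not called, changed sign, from -2.99e-05 to 0.00128 when centred and 0.000355 when shrunken. Leaving out libraries, a limma fit and the search for genes that vary like Nfkbiz were not run, as they need reads of single libraries, which were not derived for members (lowest group mean 133). No paired analysis was possible because the values are group means and the labels pair no samples.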
